A study of Mus musculus with 6 samples.

Results

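The interferon-stimulated genes considered here, together with the interferon receptors and the transcription factors that act between them, are 41 genes named on a list, each found by symbol as 1 row among the 22032 gene rows of the mouse expression matrix. The rule uses no measured value. They comprise 4 receptor subunits, 4 factors, 4 genes of RNA sensing, 13 antiviral effectors of the IFIT, ISG15, OAS and Mx groups, 5 GTPases, 4 membrane effectors and 7 other induced genes.

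RNA was sequenced from chondrocytes of the mouse knee, in 3 embryonic and 3 adult samples. The embryonic cells were taken at embryonic day 16.5 by the study's text, where the labels write weeks, and the adult cells at 2 months. Both stages were sorted for the surface receptor BMPR1B, which binds bone morphogenetic proteins, after removal of cells positive for alkaline phosphatase and for blood or endothelial markers. The adult cells were from male B6 animals, and the strain and sex of the embryos and the number of animals behind each sample were not given in the sources used here. The question for the set is how far the interferon pathway differs in level between embryonic and adult joint chondrocytes, none of which received an interferon or an infection by the labels. Levels are in TPM, the transcript count scaled for gene length and for the sum of each sample, and differences are adult minus embryonic on the log2(TPM + 1) scale. P-values measure the spread between these samples, which may be partly technical.

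Interferons are secreted proteins that cells release when they sense viral nucleic acids or, for the gamma type, when lymphocytes are activated. Type I interferons bind the IFNAR1 and IFNAR2 chains, and interferon gamma binds IFNGR1 and IFNGR2. The receptors act through JAK kinases on STAT proteins. Type I signaling ends in a complex with STAT2 and IRF9 that binds the interferon-stimulated response element (ISRE), whereas the gamma type acts through the gamma-activated site (GAS). The induced proteins block viral entry, translation and replication, degrade RNA, modify proteins or attack the vacuoles of intracellular microbes, and several are kept at a basal level without any infection. In cartilage, interferon signaling is known mainly from inflamed joints.

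The adult cells had higher levels of 9 of the 29 tested members and lower levels of 5, or 31.0% and 17.2%, where 23.9% and 21.4% of all genes tested rose and fell. Of the receptor subunits, Ifnar1, Ifngr1 and Ifngr2 rose. Ifit2, Rsad2, Gbp2, Ifi27, Ifi35 and Xaf1 rose as well, whereas Irf1, Igtp, Ifitm1, Ifitm2 and Ifitm3 fell. Ifit1, the OAS genes and Mx1 stayed at or below 1.45 TPM in every sample.

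A test was made for the 29 members whose level averaged 1 TPM or more. The other 12 (29.3% of members, against 40.4% of all rows) lay under this level. Among the tested members 14 passed a limma adjusted p of 0.05, or 48.3%, where 45.3% of all 13125 genes tested did so. Groups did not overlap for 16 members, 11 with the adult samples above and 5 below, or 55.2% against 56.5% of all genes. These shares lie near those of the whole table, so the set is described by which members moved and not by how many. The median difference was 0.78 over the tested members and 0.16 over all genes tested. Ifit3 and Ifitm1, which were listed at 0 in a whole stage, lie on opposite sides of the member median. Leaving out both therefore could not move it. With no filter on level the medians of members and of all genes were 0.26 and 0.09. Of the tested members, 4 (Ifih1, Ifit3, Igtp and Ifitm1) had a mean under 1 TPM in 1 stage and were tested through the other.

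The count of higher members was 4 without embryonic replicate 3 and that of lower members was 3, the lowest counts on leaving out any sample. These were 14.3% and 10.7% of the 28 members then tested, below the 19.1% and 16.6% of all genes called in the same setting. Ifnar1, Ifit2, Gbp2, Igtp, Ifitm2, Ifitm3 and Xaf1 passed in each of the 15 alternative settings in which they were tested, 14 in the case of Igtp.

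**Figure D1:**
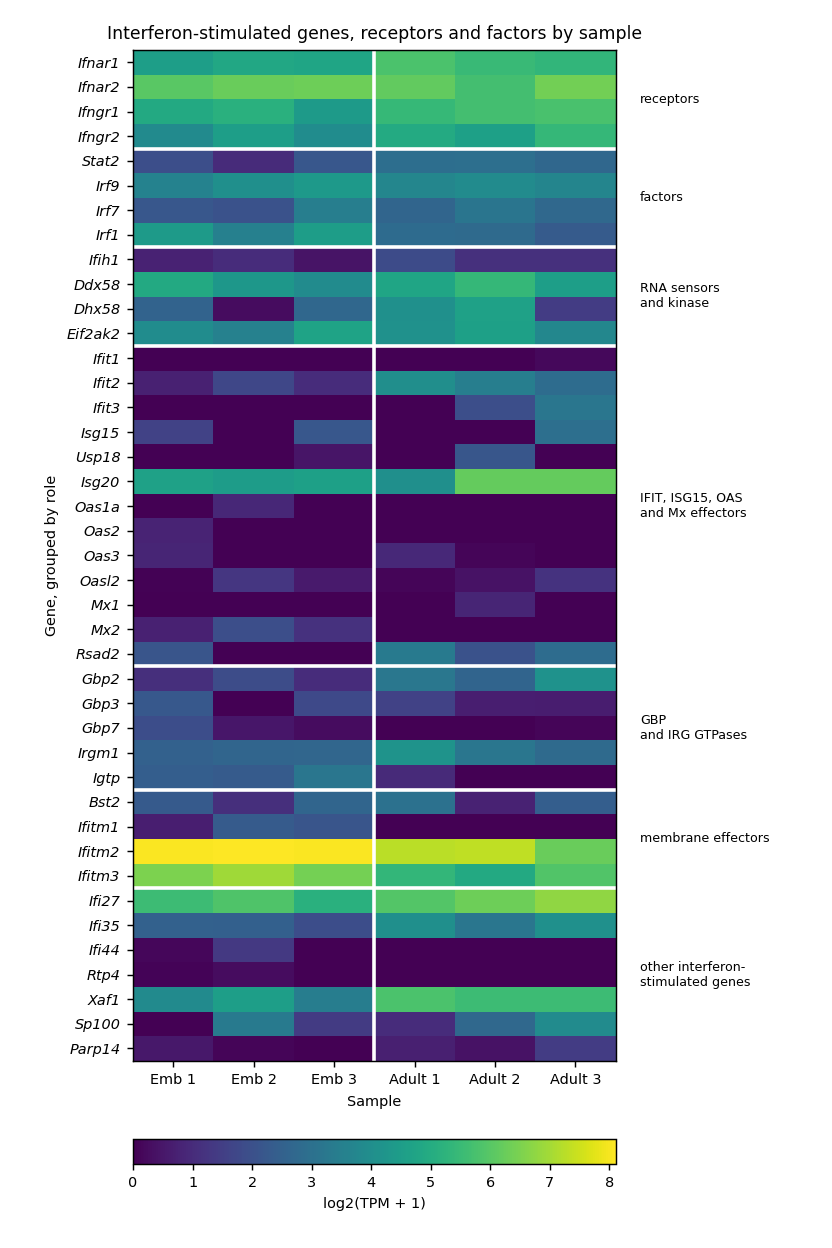
Level of each of the 41 members (rows, grouped by role) in the 3 embryonic (Emb) and 3 adult samples (columns), as log2(TPM + 1) from dark at 0 to yellow at the highest. Ifitm2 is the highest member in the embryonic samples, and Ifit1, the OAS genes and Mx1 stay dark at both stages.

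Summed over the members, the level was 689 to 761 TPM in the embryonic and 692 to 729 TPM in the adult samples, so the summed ranges overlapped while its makeup differed. The 4 membrane effectors gave 358, 404 and 358 TPM of the embryonic sums and 200, 189 and 138 TPM of the adult ones. The receptors gave 130, 159 and 140 TPM in the embryonic and 199, 169 and 218 TPM in the adult samples. The 7 genes grouped as other induced genes gave 48.7 to 95 TPM in the embryonic and 133 to 184 TPM in the adult samples. None of these 3 pairs of ranges overlapped.

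**Figure D2:**
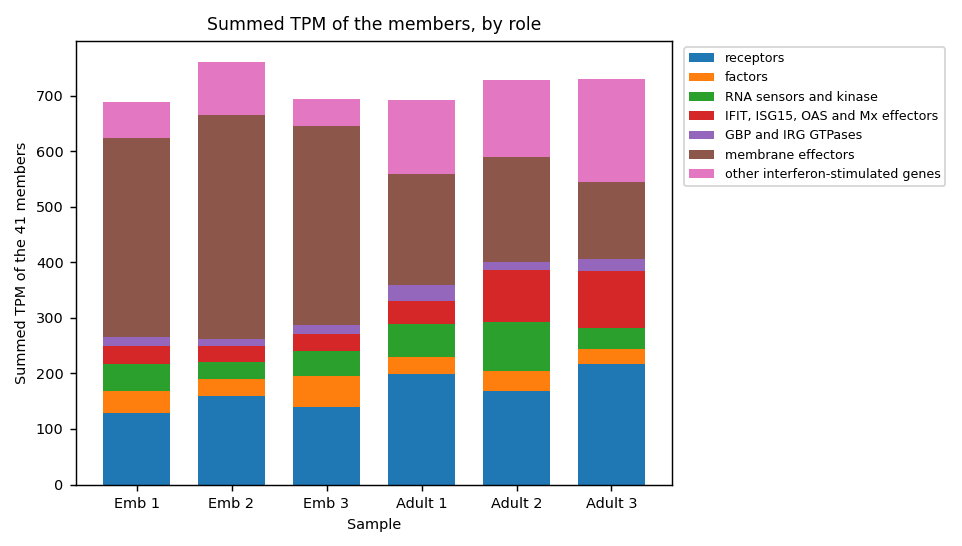
Summed TPM of the 41 members in each sample (bars), divided by role (colours). The bars reach 689 to 761 TPM in the embryonic and 692 to 729 TPM in the adult samples, and the membrane effectors (brown) shrink in the adult bars while the receptors (blue) and other induced genes (pink) widen.

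Cell type markers were compared alongside. Of 8 cartilage markers, 5 fell (Col2a1, Col9a1, Col11a1, Hapln1 and Matn3), 2 rose (Comp and Sox9) and Acan did not pass. Col2a1 was at 14154 to 15251 TPM in the embryonic and 3166 to 7084 TPM in the adult samples, and Acan at 1018 to 1306 and 1265 to 2672 TPM. Col9a1 dropped from 1913 to 1946 TPM to 27.2 to 64.3 TPM, and Matn3 from 181 to 234 TPM to 1.11 to 3.65 TPM. Of 15 leukocyte markers, 6 were tested and 2 rose, the lysosomal glycoprotein Cd68 and the integrin Itgam. Their sum was 10.1, 9.71 and 16.4 TPM in the embryonic and 100.3, 23.0 and 66.3 TPM in the adult samples, with Cd3e and Nkg7 listed at 0 throughout and Ptprc, the CD45 removed by the sort, at no more than 2.29 TPM. The 5 osteoblast markers summed to 26.9 to 60.8 TPM in the embryonic and 284 to 432 TPM in the adult samples. Of these, Bglap, Ibsp and Alpl rose, Dmp1 fell and Sp7 did not pass. Ibsp alone was at 235 to 316 TPM in the adult samples. Alpl encodes the alkaline phosphatase that the sort selected against, and was at 14.4 to 17.9 and 32.7 to 38.6 TPM. The 7 synovial and tendon fibroblast markers summed to 420 to 661 and 193 to 335 TPM, and 3 fell (Dpp4, Scx and Tnmd) and 1 rose (Clic5). The 8 endothelial markers summed to 10.9 to 40.8 and 5.38 to 15.0 TPM, and the 6 erythroid markers to 7.77 to 257 TPM, the highest in embryonic replicate 1, and 11.9 to 43.6 TPM. Of the 4 endothelial markers tested, Tek fell and the others did not pass, and no erythroid marker passed. The part of these markers in the members' differences was not tested, and in sorted bulk samples fewer cells of a type and less RNA per cell cannot be told apart.

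Promoters were read from RefSeq (GRCm38.p6) as the 250 bases before and 50 bases after each transcription start, and 33 of the 41 members had an entry. The core of the ISRE, written GAAANNGAAA and searched on both strands, was found for 18 of the 33 members (54.5%) and for 3.99% of the 27025 genes of the promoter table. The core of the GAS, written TTCNNNGAA, was found for 12 members (36.4%) and for 9.55% of genes. The list was assembled from genes known to respond to interferon, which such matches do not test. Among members with an entry, the ISRE core was found for 2 of the 8 that rose, 3 of the 5 that fell, 9 of the 14 that passed neither way and 4 of the 6 that were not tested. For the GAS core these counts were 3, 3, 4 and 2.

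The matches are shown for the 3 tested members with the largest differences among those that hold the ISRE core upstream of the start, Igtp, which fell, and Rsad2 and Gbp2, which rose, with the match in capitals and the gene's strand read 5′ to 3′. Igtp (chr11:58199416-58199555, plus strand) and Rsad2 (chr12:26456453-26456592, minus strand) are given as the 140 bases before the RefSeq start, and Gbp2 (chr3:142620594-142620623, plus strand) as 30 bases around the match, which lies inside the GENCODE gene model that starts further upstream.
Igtp: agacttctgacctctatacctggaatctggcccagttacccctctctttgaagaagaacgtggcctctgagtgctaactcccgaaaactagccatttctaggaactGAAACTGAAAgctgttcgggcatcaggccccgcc
Rsad2: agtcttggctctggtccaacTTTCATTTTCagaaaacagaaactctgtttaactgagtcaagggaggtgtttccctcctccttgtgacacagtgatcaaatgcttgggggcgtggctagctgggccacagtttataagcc
Gbp2: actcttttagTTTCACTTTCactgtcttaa

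The first base of the match lay at -34 from the start in Igtp, -120 in Rsad2 and -59 in Gbp2. The Igtp match reads in the GAAA orientation, and those of Rsad2 and Gbp2 read as the reverse complement. Igtp, Rsad2 and Gbp2 were chosen for holding the core, so their sharing of it was fixed by that choice. Isg15 (chr4:156200819-156200958, minus strand) and Ifitm2 (chr7:140955988-140956101, minus strand) were added after their values were seen, the first because overlapping matches stand beside a level that was low and scattered, the second because it has the highest mean level of all members, and its window ends where the GENCODE gene model begins.
Isg15: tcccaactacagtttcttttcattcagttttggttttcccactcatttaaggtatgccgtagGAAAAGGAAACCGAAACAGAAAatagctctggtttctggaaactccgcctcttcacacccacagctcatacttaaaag
Ifitm2: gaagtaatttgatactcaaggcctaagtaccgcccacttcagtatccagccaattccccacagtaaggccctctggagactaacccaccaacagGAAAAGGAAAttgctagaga

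In Isg15, 3 overlapping matches began at -78, -72 and -66, and in Ifitm2 1 match began at -46. A match describes the letters of the reference and not a bound site.

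**Figure D3:**
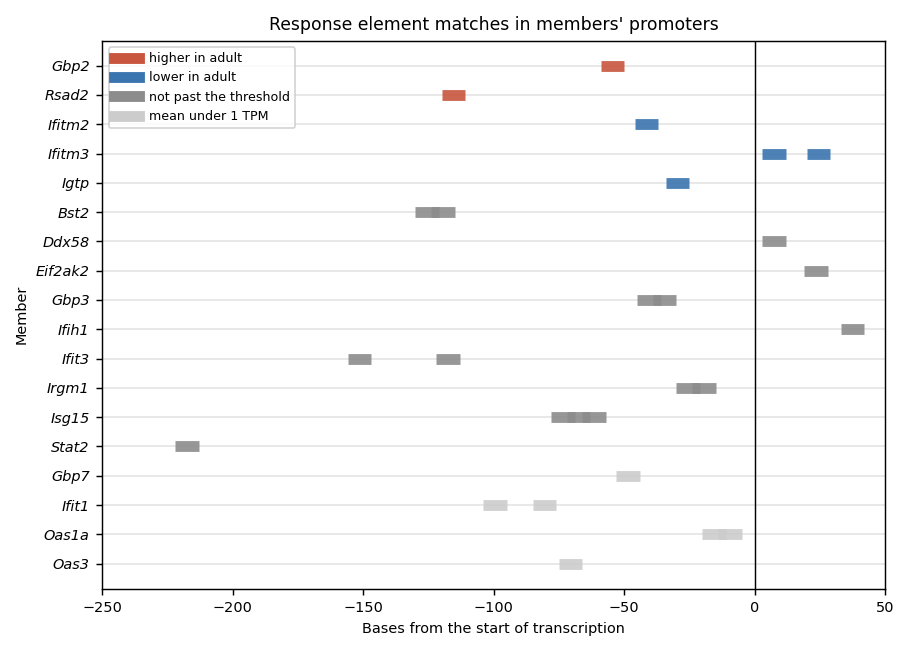
Positions of the ISRE core (bars) in the promoters of the 18 members that hold it (rows), in bases from the RefSeq start of transcription, coloured by the member's result. The rows include members that rose, fell, did not pass and were not tested. In the members that rose, the matches lie before the start. Matches after the start are those of Ifitm3, which fell, and of Ifih1, Ddx58 and Eif2ak2, which did not pass.

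Ifnar1, the first chain of the type I interferon receptor (ENSMUSG00000022967, chr16:91485238-91507441), was at 22.5, 28.0 and 26.1 TPM in the embryonic and 55.2, 44.0 and 39.4 TPM in the adult samples. All 3 adult values lay above all embryonic values. The log2 level rose from 4.72 ± 0.157 to 5.55 ± 0.242 (SD, n = 3 each), a difference of 0.82 (SE 0.205, limma adjusted p = 0.0111). Ifnar2, the second chain of that receptor, on the same chromosome (chr16:91372783-91405589), was at 64.4, 74.7 and 78.9 TPM in the embryonic and 71.3, 50.9 and 83.2 TPM in the adult samples. These ranges overlapped, and the difference of -0.11 had a 95% interval of -0.57 to 0.35 (limma adjusted p = 0.688). Of the 4 subunits Ifnar2 had the highest mean at each stage. Whether the changes of the type I chains differ from each other was not tested.

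The interferon gamma receptor chains both rose. Ifngr1, the ligand-binding chain (chr10:19591949-19610229), was at 29.1, 34.5 and 20.4 TPM in the embryonic and 42.3, 50.1 and 53.4 TPM in the adult samples. Its groups did not overlap, and it rose by 0.80 (SE 0.231, limma adjusted p = 0.0212). Ifngr2, the signaling chain (chr16:91547072-91565623), was at 13.7, 22.2 and 14.3 TPM in the embryonic and 29.8, 23.6 and 41.5 TPM in the adult samples. Here embryonic replicate 2 and adult replicate 2 were close, and the difference was 0.88 (SE 0.293, limma adjusted p = 0.0374). Ifngr2 passed in 6 of 15 alternatives, with an adjusted p from 0.0243 to 0.119, and lost the call without embryonic replicate 1 or 3 or adult replicate 1 or 3 and at 0.0613 with the replicate number as a block. Its call was also lost with quantile normalization (limma adjusted p = 0.0834), median of ratios (0.0733), no filter (0.0566) and eBayes without trend (0.0546). Ifngr1 passed in 11 of 15, and its adjusted p rose to 0.0688 at most on leaving out embryonic replicate 1 or 3 or adult replicate 2 or 3.

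Among the factors, Irf1 was the member that changed. IRF1 is an activator induced by interferon gamma that binds ISRE-like sites, and its gene (chr11:53770014-53778374) was at 20.2, 10.6 and 21.9 TPM in the embryonic and 6.19, 6.03 and 3.98 TPM in the adult samples. All adult values lay below the embryonic ones. The log2 level fell from 4.15 ± 0.541 to 2.66 ± 0.296 (SD, n = 3 each), by 1.49 (SE 0.375, limma adjusted p = 0.0113). The call was lost without embryonic replicate 1 (adjusted p = 0.054) or 3 (0.0545).

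Stat2, Irf9 and Irf7 did not pass. Stat2, the STAT particular to type I and type III responses, was at 2.89, 0.985 and 3.59 TPM in the embryonic and 6.6, 6.85 and 5.53 TPM in the adult samples. The groups did not overlap, but the difference of 1.15 had a limma adjusted p of 0.0641, with a range of 0.0376 to 0.184 over the alternatives. Irf9, the DNA-binding partner of the STATs, was at 11.2, 15.5 and 19.6 TPM in the embryonic and 12.3, 14.2 and 11.9 TPM in the adult samples, a difference of -0.23 (95% interval -0.90 to 0.44, limma adjusted p = 0.551). Irf7, the amplifier of type I interferon production, was at 3.58, 3.12 and 10.1 TPM in the embryonic and 5.23, 7.83 and 5.62 TPM in the adult samples, a difference of 0.26 (95% interval -0.80 to 1.33, limma adjusted p = 0.669). For both, the adult values lay within or across the embryonic range.

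**Figure D4:**
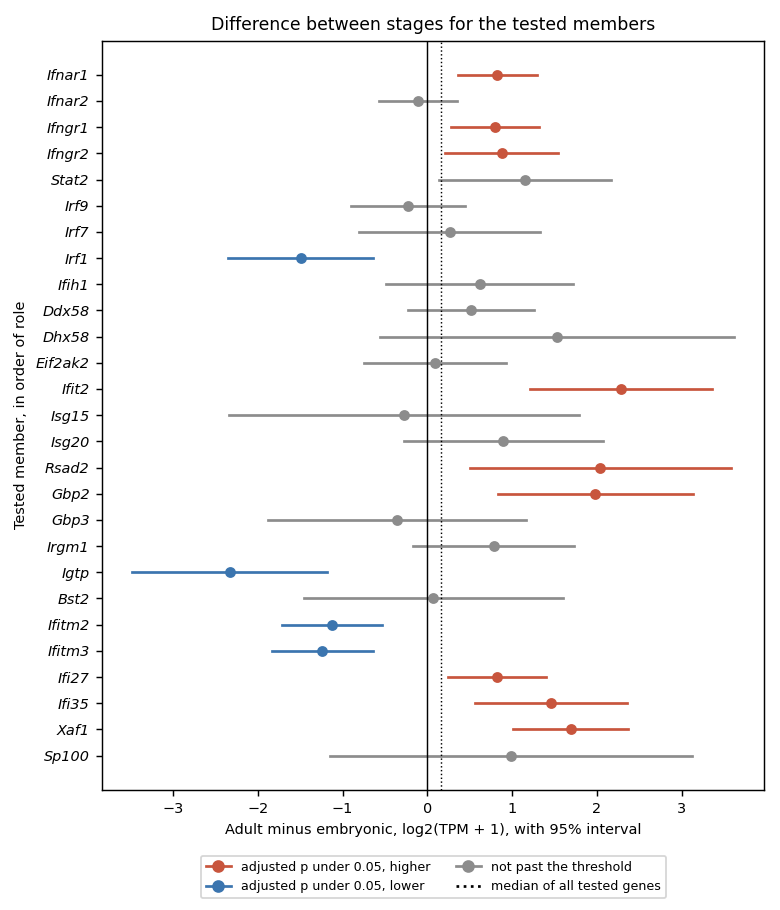
Difference between stages, adult minus embryonic on the log2(TPM + 1) scale, with its 95% interval (points and lines) for the 27 tested members that are not listed at 0 in a whole stage. The coloured members passed a limma adjusted p of 0.05, and the dotted line at 0.16 is the median of all genes tested.

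Genes of RNA sensing were measured at both stages and none passed. Ddx58, which encodes the sensor RIG-I, was at 14.1 to 29.2 TPM in the embryonic and 22.3 to 41 TPM in the adult samples. Eif2ak2, which encodes the RNA-activated kinase PKR that halts translation, was at 10.8 to 25.2 and 12.5 to 23.4 TPM. Ifih1, which encodes the sensor MDA5, was lower, at 0.341 to 1.06 and 1.16 to 2.65 TPM, with the adult values above the embryonic ones and a limma adjusted p of 0.329.

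Dhx58, which encodes the RIG-I-like regulator LGP2, was at 5.02, 0.197 and 5.60 TPM in the embryonic and 15.7, 24.1 and 1.74 TPM in the adult samples. Adult replicate 3 stood apart from the other adult samples, and the difference of 1.53 had a limma adjusted p of 0.205. The difference grew to 2.5, at an adjusted p of 0.0277, when that sample was left out. It shrank to 0.90 without adult replicate 2 (limma adjusted p = 0.496) and to 0.73 without embryonic replicate 2 (0.554).

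The IFIT family binds viral RNA and blocks its translation, and its members differed in level. Ifit2 (chr19:34550694-34576419) was at 0.662, 2.33 and 1.02 TPM in the embryonic and 15.0, 9.99 and 6.33 TPM in the adult samples. The ranges lay well apart. Its log2 level rose from 1.16 ± 0.516 to 3.44 ± 0.562 (SD, n = 3 each), a difference of 2.28 (SE 0.473, limma adjusted p = 0.00461) and the largest rise among the members that passed. Ifit1 was listed at 0 in 5 of 6 samples and at 0.137 TPM in adult replicate 3. Ifit3 was listed at 0 in every embryonic sample and at 0, 2.84 and 8.0 TPM in the adult ones. Its limma adjusted p was 0.101, with 0.0111 without adult replicate 1 and 0.206 without adult replicate 2. The coding sequence of Ifit3 is 99.1% identical to that of Ifit3b over its whole length, so the division of reads between them is uncertain.

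Rsad2 encodes viperin, which makes a chain-terminating nucleotide against viral polymerases (chr12:26442746-26456452). It was at 3.44, 0 and 0 TPM in the embryonic and 9.15, 3.16 and 6.33 TPM in the adult samples. Embryonic replicate 1 lay above adult replicate 2, so the groups overlapped, and the difference was 2.04 (SE 0.679, limma adjusted p = 0.0366). It passed in 8 of 14 alternatives and lost the call without embryonic replicate 2 or 3 or adult replicate 1 or 3, with an adjusted p of 0.124 at most. The call was also lost with no filter (limma adjusted p = 0.0621) and with eBayes without trend (0.0505).

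Isg20, an exonuclease that degrades single-stranded RNA, was the highest of the antiviral effectors. It was at 24.1, 21.4 and 23.6 TPM in the embryonic and 15.5, 72.2 and 72.3 TPM in the adult samples. Adult replicate 1 lay below all embryonic values and the other adult samples lay far above them. The difference of 0.90 had a limma adjusted p of 0.186, and leaving out adult replicate 1 gave 1.61 (limma adjusted p = 0.000614). Without adult replicate 2 or 3 the difference was 0.54 each time (limma adjusted p = 0.463 and 0.44). Summed without Isg20, the other 12 effectors of this group gave 8.34, 7.56 and 6.76 TPM in the embryonic and 25.1, 20.7 and 28.8 TPM in the adult samples.

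Isg15, the ubiquitin-like protein that is conjugated to other proteins in the interferon response, was at 2.00, 0 and 3.63 TPM in the embryonic and 0.0117, 0 and 6.78 TPM in the adult samples. The values scattered from 0 upward within each stage, and the limma adjusted p was 0.823. The OAS genes, whose products make the 2′-5′ oligoadenylates that activate RNase L, stayed at or below 1.45 TPM in all samples, which Oasl2 reached in embryonic replicate 2. The coding sequence of Isg15 is 95.2% identical to AC151275.1 over 99.6% of its length, and that of Oas1a 96.7% identical to Oas1g. The division of reads is therefore uncertain for both. Usp18, which removes ISG15 and damps the type I receptor, was above 0 in embryonic replicate 3 at 0.364 TPM and adult replicate 2 at 3.49 TPM. Mx2, a dynamin-like GTPase, had embryonic values of 0.665, 2.90 and 1.23 TPM and was listed at 0 in all adult samples, and its relative Mx1 was above 0 in adult replicate 2 at 0.783 TPM. The coding sequence of Mx2 is 94.7% identical to Mx1 over 46.9% of its length, so the division of their reads is uncertain too. A value of 0 may be a failed estimate and need not mean an absent transcript.

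The members under a mean of 1 TPM, which were not tested, came mostly from this group. They were Ifit1, Usp18, Oas1a, Oas2, Oas3, Oasl2, Mx1, Mx2, Gbp7, Ifi44, Rtp4 and Parp14. Of their 72 values, 40 were listed at 0 and the highest was 3.49 TPM. Ifi44 and Rtp4 were listed at 0 in all adult samples and reached 1.53 and 0.201 TPM in the embryonic ones, whereas Parp14, an ADP-ribosyltransferase, was at 0.0122 to 0.423 and 0.33 to 1.74 TPM.

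The interferon-inducible GTPases take part in the defence against intracellular microbes, and members of the set moved in both directions. Gbp2, a guanylate-binding protein gene (chr3:142620602-142638008), was at 1.13, 2.73 and 1.03 TPM in the embryonic and 8.20, 5.16 and 16.4 TPM in the adult samples. Every adult value was above every embryonic one. It rose from 1.34 ± 0.487 to 3.31 ± 0.754 on the log2 scale (SD, n = 3 each), by 1.98 (SE 0.506, limma adjusted p = 0.0125). Its coding sequence is 83.4% identical to that of Gbp2b.

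Igtp, also known as Irgm3, an immunity-related GTPase gene (chr11:58199556-58207591), went the other way. It was at 4.40, 4.02 and 8.17 TPM in the embryonic and 0.951, 0 and 0 TPM in the adult samples. All adult values lay below 1 TPM and all embryonic values above 4 TPM. The log2 level fell by 2.33 (SE 0.505, limma adjusted p = 0.00577), the largest fall among members not listed at 0 in a whole stage. The coding sequence of Igtp is 84.0% identical to that of Irgm2 over 53.6% of its length, and their gene models overlap on the same strand. Another relative of Igtp, Irgm1, was at 4.76, 5.20 and 5.33 TPM in the embryonic and 16.8, 8.17 and 6.02 TPM in the adult samples. The adult values of Irgm1 lay above the embryonic ones, but the difference of 0.78 had a limma adjusted p of 0.158. Gbp3 was at 0 to 3.70 and 0.569 to 2.06 TPM (limma adjusted p = 0.683), and Gbp7 at 0.217 to 2.77 TPM in the embryonic and at most 0.0916 TPM in the adult samples.

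The interferon-induced transmembrane proteins restrict the entry of enveloped viruses, and all 3 genes in the set were lower in the adult cells. They lie together on chromosome 7, between 140954837 and 141010770. Ifitm2 was at 264, 275 and 265 TPM in the embryonic and 153, 159 and 75.4 TPM in the adult samples. The embryonic values were tight and the adult ones spread, with replicate 3 the lowest. The log2 level fell from 8.07 ± 0.0341 to 6.95 ± 0.600 (SD, n = 3 each), by 1.12 (SE 0.259, limma adjusted p = 0.00769).

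Ifitm3, the member best known for restricting influenza virus, was at 89.7, 124 and 84.5 TPM in the embryonic and 40.0, 29.2 and 58.6 TPM in the adult samples. Its groups did not overlap, and the order of adult samples was unlike that of Ifitm2, since replicate 3 was the highest. It fell from 6.63 ± 0.293 to 5.39 ± 0.490 (SD, n = 3 each), by 1.24 (SE 0.262, limma adjusted p = 0.00516). Ifitm1 had embryonic values of 0.598, 4.0 and 3.44 TPM and was listed at 0 in all adult samples (limma adjusted p = 0.0373). It passed in 8 of the 12 alternatives that tested it, and the call was lost on leaving out any adult sample, with an adjusted p of 0.0775 at most, and at 0.0608 with the replicate number as a block. Near copies of these genes exist in the genome: the coding sequence of Ifitm1 is 97.5% identical to Gm7676, and that of Ifitm2 97.0% identical to Gm11951.

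Bst2 encodes tetherin, which holds budding virions at the cell surface. It was at 3.91, 1.14 and 5.24 TPM in the embryonic and 7.19, 0.721 and 4.36 TPM in the adult samples. The ranges overlapped, with replicate 2 the lowest of each stage, and the difference of 0.07 had a 95% interval of -1.46 to 1.6 (limma adjusted p = 0.94), which holds the differences of Ifitm2 and Ifitm3.

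**Figure D5:**
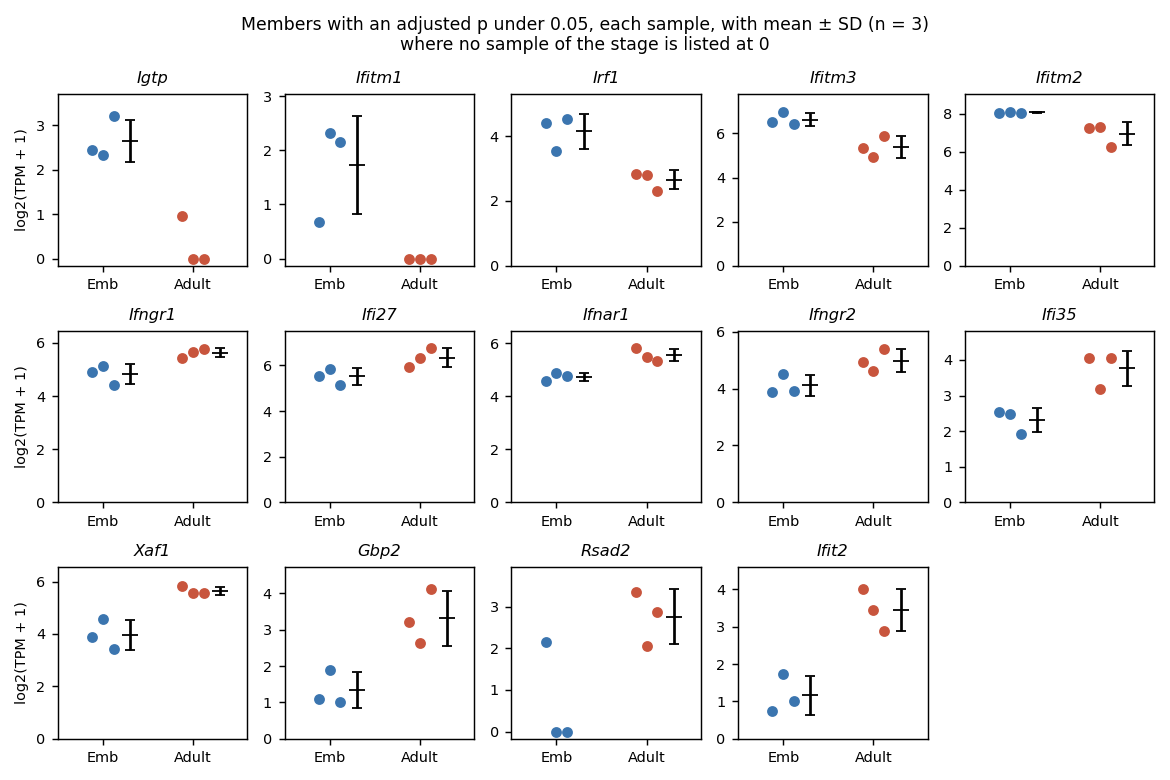
Level of the 14 members that passed the test in each embryonic (Emb, blue) and adult (red) sample, as log2(TPM + 1), ordered by difference, with the mean ± SD of 3 samples drawn where no sample of the stage is listed at 0. The 5 members from Igtp to Ifitm2 are lower in the adult samples and the other 9 higher, and only in Rsad2 do the points of the stages overlap.

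Among the other induced genes, Xaf1 changed with the smallest adjusted p of all members. XAF1 counters inhibitors of apoptosis, and its gene (chr11:72301629-72313733) was at 13.6, 22.5 and 9.76 TPM in the embryonic and 55.8, 45.8 and 45.8 TPM in the adult samples. The lowest adult value was above the highest embryonic one. It rose from 3.95 ± 0.568 to 5.64 ± 0.161 on the log2 scale (SD, n = 3 each), by 1.69 (SE 0.298, limma adjusted p = 0.00208).

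Ifi35, a partner of NMI (chr11:101448407-101458698), was at 4.77, 4.55 and 2.78 TPM in the embryonic and 15.6, 8.08 and 15.7 TPM in the adult samples. The groups did not overlap, and it rose by 1.46 (SE 0.395, limma adjusted p = 0.0159). The call was lost without embryonic replicate 3 (adjusted p = 0.0563) or adult replicate 1 (0.0509). Ifi27, a small mitochondrial and nuclear membrane protein (chr12:103434211-103440239), was at 46.0, 57.1 and 34.5 TPM in the embryonic and 60.3, 79.6 and 107 TPM in the adult samples. It rose by 0.82 (SE 0.254, limma adjusted p = 0.028) with the highest embryonic and lowest adult values close together. It passed in 9 of 15 alternatives, with an adjusted p from 0.0146 to 0.101. The settings that lost the call include those without embryonic replicate 1 or 3 or adult replicate 2 or 3.

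Sp100, a nuclear body protein, was at 0, 8.97 and 1.67 TPM in the embryonic and 1.05, 5.70 and 14.0 TPM in the adult samples. The scatter within each stage was as wide as the distance between them, and the limma adjusted p was 0.42.

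The leukocyte marker sum was 100.3, 23.0 and 66.3 TPM in adult replicates 1, 2 and 3. Leaving out each of these samples in that order gave 8, 7 and 6 members called higher and 4 lower each time. The higher members were 28.6%, 24.1% and 21.4% of those tested, beside 21.6%, 20.3% and 21.7% of all genes. The lower ones were 14.3%, 13.8% and 14.3%, beside 19.8%, 19.2% and 21.3% of all genes. The part of leukocyte RNA in these calls was not tested.

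A wider list of 101 pathway genes outside the set, chosen with earlier results of these data known, was read in the same fit. The 21 interferon ligand genes on it, of the alpha, beta, gamma and other types, were listed at 0 in all 6 samples. Of the 53 genes tested, 13 (24.5%) rose and 6 (11.3%) fell, against 23.9% and 21.4% of all genes. The median difference was 0.21 against 0.16 over all genes tested.

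Among the kinases downstream of the receptors, Tyk2, the kinase bound to IFNAR1, was at 2.21, 0.937 and 4.10 TPM in the embryonic and 13.8, 16.2 and 14.3 TPM in the adult samples, and rose by 2.31 (limma adjusted p = 0.00277). Jak1, the kinase used by both receptors, was at 369, 275 and 266 TPM in the embryonic and 198, 215 and 228 TPM in the adult samples, and fell by 0.49 (limma adjusted p = 0.0281). Tyk2 and Jak1 thus moved in opposite directions. Jak2, the partner kinase of the gamma receptor, was at 43.5 to 58.5 and 35.3 to 39.6 TPM (limma adjusted p = 0.0563). Ptpn2, a phosphatase that removes phosphate from JAKs and STATs, was at 93.4, 116 and 94.9 TPM in the embryonic and 76.2, 44.1 and 41.8 TPM in the adult samples, and fell by 0.94 (limma adjusted p = 0.0113).

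Of the 11 tested genes of nucleic acid sensing on the wider list, 3 rose (Ikbke, Trim25 and Mavs) and 1 fell (Tmem173), so that 36.4% were called against 45.3% of all genes. Ikbke, a kinase that activates IRF3 and IRF7, was at 3.67, 5.92 and 3.97 TPM in the embryonic and 39.2, 27.3 and 45.2 TPM in the adult samples, and rose by 2.78 (limma adjusted p = 0.000193). Trim25, the ubiquitin ligase that acts on RIG-I, was at 5.69, 5.63 and 6.01 TPM in the embryonic and 35.7, 28.5 and 35.5 TPM in the adult samples, and rose by 2.33 (limma adjusted p = 0.000172). Their groups lay far apart. Mavs, the mitochondrial adaptor, rose by 1.24 (limma adjusted p = 0.0139), and Irf3, the factor at the end of that path, by 0.55 (limma adjusted p = 0.0389). Tmem173, which encodes the DNA-sensing adaptor STING, fell from 8.10 to 13.2 TPM in the embryonic to 0 to 3.97 TPM in the adult samples (limma adjusted p = 0.0293). Tbk1 was at 28.6 to 35.4 and 30.1 to 47.7 TPM (limma adjusted p = 0.294).

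Of the wider list's other interferon-stimulated genes, 26 were tested, 7 rose and 3 fell (26.9% and 11.5%, against 23.9% and 21.4% of all genes). Ifi30, a lysosomal thiol reductase, was at 83.4, 63.3 and 94.8 TPM in the embryonic and 247, 202 and 183 TPM in the adult samples, and rose by 1.39 (limma adjusted p = 0.000456). Herc6, the mouse ligase that attaches ISG15, Lgals3bp, Tor3a, Trafd1 and Znfx1 rose by 1.36 to 2.08, and Ifi27l2a, listed at 0 in all embryonic samples, reached 12, 3.32 and 3.98 TPM in the adult ones. The chemokine Cxcl10, which draws T cells, was at 15.7, 10.6 and 10.1 TPM in the embryonic and 0, 0.713 and 0.456 TPM in the adult samples, and fell by 3.25 (limma adjusted p = 0.000454). Lgals9, which encodes galectin-9, was at 16.7, 11.6 and 14.6 TPM in the embryonic and 4.04, 1.68 and 0.537 TPM in the adult samples, and fell by 2.47 (limma adjusted p = 0.00366). Iigp1, another immunity-related GTPase, was at 6.50, 0.753 and 1.97 TPM in the embryonic and 0, 0 and 0.0615 TPM in the adult samples (limma adjusted p = 0.0454). Ifi27l2a, with an embryonic mean of 0 TPM, was tested through the adult stage. Cxcl10, Iigp1 and Igtp had adult means under 1 TPM and were tested through the embryonic stage. Irgm1, a relative of Igtp, did not pass, with its adult values above the embryonic ones. Irgm2 was not tested, at 0.695 to 1.76 TPM in the embryonic and 0 to 2.32 TPM in the adult samples.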

How the data were processed

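The authors mapped single-end reads to GRCm38 with RefSeq annotation, estimated levels with RSEM and deposited log2 values, log2(TPM + 1), per gene for the 6 samples. The RSEM version was not given in the sources used here. TPM does not carry depth, so the precision of a value rests on 3 samples per stage. The labels name a Kapa mRNA-Seq kit where the methods describe Nugen Ovation V2 cDNA primed with random and poly(T) primers. RSEM divides reads among near-identical genes.

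Ensembl identifiers were matched to GENCODE M21 (21902 with a symbol, 130 without), then to older symbols and RefSeq synonyms. Positions are those of GENCODE genes on GRCm38, and promoter sequences are those of RefSeq GRCm38.p6. The likeness of genes was measured on coding sequences with BLAST+ 2.17.0, in place of the protein comparison that had been planned.

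Stages were compared with limma 3.58.1 in R 4.3.3 (lmFit, eBayes with trend) on log2(TPM + 1), a pseudocount of 1, for the 13125 genes averaging 1 TPM or more, with Benjamini-Hochberg adjustment over all of them and a threshold of 0.05. EBSeq, which the study used, needs counts and was not used here. The members and lists were chosen with earlier results of these data known. Every member that passed, every receptor and factor, and any member with groups apart and a difference of at least 1 was given per sample, and others were added after their values were seen. Of the wider list, genes that passed could be named (1 of them is not reported here), with at least the 3 largest changes each way. Promoters were shown for the 3 members with the largest differences that hold the ISRE core. On simulated data with 200 of 13125 genes changed, 89 were called, all with the right sign, beside 5 unchanged genes.

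As alternatives, the pseudocount was set to 0.1, the filter was dropped or raised to 5 TPM, samples were scaled by quantiles, by median of ratios or to a total that left out the 20 highest genes, eBayes was run robust or with no trend, replicate number entered as a block, and each sample was left out in turn. Python 3.11.15 with numpy 2.4.6, pandas 2.3.3 and matplotlib 3.10.9 made the tables and plots.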

Additional observations from a re-analysis of the deposited data

How the results depend on the processing

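Over 422 pairs of a tested member and an alternative setting, 370 kept their direction and side of the threshold, 33 lost the call, 4 gained one (Stat2, Dhx58, Ifit3 and Isg20, in 1 setting each) and 15 changed sign. None of the 14 members that passed changed sign in any setting. The sign changes were all in members that did not pass, with adjusted p of at least 0.663: Eif2ak2 went to -0.11 with quantile normalization and -0.048 with median of ratios, Bst2 to -0.076 and -0.031, and Gbp3 to 0.019 with a pseudocount of 0.1. On leaving out 1 sample, Ifnar2 ranged from -0.26 to 0.089, Eif2ak2 from -0.16 to 0.41, Isg15 from -1.26 to 0.22, Gbp3 from -1.03 to 0.086 and Bst2 from -0.41 to 0.72. On leaving out 1 sample, 4 to 8 members were called higher and 3 to 4 lower, with the lowest counts of both without embryonic replicate 3. These were 14.3% to 28.6% and 10.7% to 14.3% of the members tested. Of all genes, 18.6% to 21.7% were then called higher and 16.4% to 21.3% lower. A mean of at least 5 TPM left 3 members lower, since Igtp and Ifitm1 were then not tested. Without a filter, which lets in members near 0, the median of the tested members was 0.26. Median-of-ratios scaling moved the median of all genes from 0.16 to 0.02. Then 7 members were higher and 5 lower, beside 2614 and 3243 of the 13093 genes tested. With the replicate number as a block, 8 members were higher and 4 lower, beside 2871 and 2559 of the 13125 genes tested. Ifngr2 (adjusted p = 0.0613) and Ifitm1 (0.0608) then lost the call. Same-numbered samples did not deviate together over the genes as a whole (correlations of -0.01, -0.02 and -0.02). Such a correlation cannot exclude a pairing that touched part of the genes. TPM gives no depth, so a member near 0 may be absent or below what these libraries could show.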
